A study of Mus musculus with 2 samples.

Results

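The 8 mouse GIMAP genes measured in both libraries of this series, Gimap1, Gimap3, Gimap4, Gimap5, Gimap6, Gimap7, Gimap8 and Gimap9, are described here across single T cells of the spleen. They were found by gene symbol in both tables of molecule counts, where they are 8 of 22686 genes. The cells came from spleens of mice aged 8 to 9 weeks and were sorted as CD3+CD5+ cells. One group was LatY136F CD45-KO (called CD45-KO below) and the other LatY136F, so both groups carry the LatY136F mutation and neither is a wild type. LatY136F replaces a tyrosine of the adaptor LAT that binds phospholipase C gamma, and these mice are known to develop an expansion of T helper 2-type CD4 T cells. CD45, encoded by Ptprc, is a receptor tyrosine phosphatase that acts on Src family kinases. The labels do not say whether CD45 was removed from all cells or from T cells alone, nor how many mice were pooled. Each genotype is 1 library, so no difference below has a replicate check, no p-value is given, and intervals are 95% intervals for counting error only.

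GIMAP proteins are GTPases of the immunity-associated protein family. Some of them are anchored to membranes inside lymphocytes, such as those of lysosomes, mitochondria and the endoplasmic reticulum. Their genes lie side by side in vertebrate genomes and are expressed mainly in lymphocytes. Loss of some members, among them Gimap1 and Gimap5, reduces the number or the survival of T cells in mice or rats. Loss of Gimap5 also lets T cells leave the resting state.

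Molecules were counted by unique molecular identifiers (UMIs): 29268453 UMIs from 12845 cells in CD45-KO, against 35300371 UMIs from 13775 cells in LatY136F. T-like cells, which carried a UMI of at least 1 of 7 T cell markers such as Cd3e and fewer than 2 UMIs over 18 B-lineage and myeloid markers, made up 98.8% of the 12834 CD45-KO cells kept, against 99.5% of the 13747 LatY136F cells kept. Their median depth was 1986 UMIs per cell in CD45-KO, against 2153 in LatY136F, and the median mitochondrial share was 9.42%, against 8.59%. Over T-like cells, the summed B-lineage, myeloid, NK and erythroid or platelet markers stood at 0.598 to 12.4 CPM (UMIs per 1000000 counted) in CD45-KO and at 2.40 to 6.66 CPM in LatY136F, against 6617 CPM in CD45-KO and 8238 CPM in LatY136F for the T cell markers. The gate used the same T cell, B-lineage and myeloid markers, so their values follow from it. Only the NK and the erythroid or platelet values do not. The NK markers were at 12.4 CPM in CD45-KO, against 4.89 CPM in LatY136F, and their part in the results was not tested. Cell barcodes found in both files numbered 223. Ptprc, the targeted gene, was at 1182 CPM in CD45-KO, against 1760 CPM in LatY136F. Its transcript was therefore still counted, and the labels do not name the deleted exons, so counts that come from transcript ends do not check the deletion. Lat was at 379 CPM in CD45-KO, against 426 CPM in LatY136F.

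The 8 genes form 1 cluster on mouse chromosome 6 (GRCm38 with GENCODE M21), chr6:48647234-48770851, a stretch of 124 kb that holds them in the order Gimap8, Gimap9, Gimap4, Gimap6, Gimap7, Gimap1, Gimap5 and Gimap3. Gimap6 and Gimap3 are on the minus strand and the 6 others on the plus strand. Some of their transcripts are hard to tell apart. An antisense gene, Gimap1os, covers 36.0% of the exonic bases of Gimap1, and whether the authors' counting used strand is not stated in the labels or file headers. A readthrough gene, Gm28053, shares 3.48% to 6.44% of the exonic bases of Gimap7, Gimap1 and Gimap5, but only 17 UMIs in CD45-KO and 13 in LatY136F were assigned to it. The coding sequences of Gimap3 and Gimap5 are 90.4% identical over 895 aligned bases, against 55.7% to 66.6% for all other pairs, whereas the last 300 bases of their transcripts, from which 3' counts come, are 63.9% identical over 244 aligned bases. Counts of Gimap3 and Gimap5 are therefore given as uncertain where a read falls in the shared coding part.

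The promoters of 4 members are shown because these members take the extremes of the results: Gimap6 had the largest genotype ratio and the largest deficit in cycling CD45-KO cells, Gimap3 was the most abundant, Gimap7 followed its own order of cell states, and Gimap1 changed the sign of its genotype ratio between states. Each line gives the 250 bases before the RefSeq start on GRCm38.p6, 5′ to 3′ on the strand of the gene, at chr6:48708245-48708494 (minus strand, Gimap6), chr6:48770852-48771101 (minus strand, Gimap3), chr6:48718371-48718620 (plus strand, Gimap7) and chr6:48738797-48739046 (plus strand, Gimap1). Capitals mark matches on either strand to 5 motifs.
Gimap6: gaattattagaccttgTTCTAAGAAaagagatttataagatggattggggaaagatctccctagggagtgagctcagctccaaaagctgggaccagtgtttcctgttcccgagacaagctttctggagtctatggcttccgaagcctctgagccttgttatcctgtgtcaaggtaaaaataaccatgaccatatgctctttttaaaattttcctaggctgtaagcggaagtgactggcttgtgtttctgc
Gimap3: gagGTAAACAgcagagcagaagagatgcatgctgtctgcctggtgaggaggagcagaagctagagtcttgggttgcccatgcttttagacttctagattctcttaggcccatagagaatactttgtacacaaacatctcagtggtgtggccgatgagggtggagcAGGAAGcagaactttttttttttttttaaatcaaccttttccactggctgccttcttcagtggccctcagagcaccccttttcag
Gimap7: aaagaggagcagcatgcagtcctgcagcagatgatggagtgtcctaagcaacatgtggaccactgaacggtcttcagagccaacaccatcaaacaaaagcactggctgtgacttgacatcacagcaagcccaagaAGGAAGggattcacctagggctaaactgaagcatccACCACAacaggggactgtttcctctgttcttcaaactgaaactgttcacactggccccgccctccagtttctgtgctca
Gimap1: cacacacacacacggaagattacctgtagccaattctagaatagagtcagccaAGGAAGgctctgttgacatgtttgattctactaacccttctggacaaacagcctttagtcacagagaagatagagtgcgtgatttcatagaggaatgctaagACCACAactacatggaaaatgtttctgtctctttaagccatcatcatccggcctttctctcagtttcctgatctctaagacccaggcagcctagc
The ETS letters AGGAAG were found in 6 of the 8 Gimap promoters, all except those of Gimap6 and Gimap8, and in 29.5% of 32851 mouse promoters of the same length. The RUNX letters TGTGGT were found in 3 of 8, those of Gimap1, Gimap4 and Gimap7, against 14.0% of all promoters. The FOXO letters GTAAACA occurred only in the Gimap3 promoter among the 8, against 3.17% of all promoters, and the STAT letters TTCNNNGAA only in that of Gimap6, against 7.02%. The TCF/LEF letters CTTTGA occurred in none of the 8, against 13.8% of all promoters. No 2 of these motifs overlap in the sequences shown. A match describes letters, not a bound site.

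All 8 members were higher in CD45-KO T-like cells than in LatY136F T-like cells. Summed over the 8 genes, the level was 2666 CPM in CD45-KO, against 1955 CPM in LatY136F, a log2 ratio of 0.45 (0.43 to 0.46). The ratios of the single members ran from 0.21 to 0.88 with a median of 0.38, whereas the median over all 6664 genes with at least 20 CPM in a library was 0.01 and 52.1% of them were above 0. The middle 90% of all genes lay between -0.51 and 0.41, so Gimap6, Gimap3 and Gimap7 were above that range and the 5 others inside it. At 1.5-fold or more, 1 of 8 members was called higher and none lower, against a background of 1.89% of all genes called higher and 3.8% called lower. In bulk sums of this kind, fewer cells with a transcript and fewer molecules per cell cannot be told apart, and the shares of cells with a UMI are given further on.

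Gimap6, which binds a GABARAP-type protein of the autophagy machinery, was the called member. Its level was 232 CPM in CD45-KO, against 126 CPM in LatY136F, a 1.84-fold higher level (log2 0.88, 0.83 to 0.94). Gimap3, a member that the human genome holds only as a pseudogene and that sits on membranes of the endoplasmic reticulum in mouse cells, was the most abundant, with 871 CPM in CD45-KO and 588 CPM in LatY136F. Its ratio of 1.48-fold (log2 0.57, 0.54 to 0.59) fell just short of the threshold, and Gimap7 came next with 1.34-fold. Gimap5, the lysosomal member whose loss in mice and rats depletes T cells, had the smallest ratio, with 143 CPM in CD45-KO and 124 CPM in LatY136F (log2 0.21, 0.14 to 0.27). The pair with the most similar coding sequence thus stood near opposite ends of the list.

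Gimap4, which promotes the death of T cells in mice once apoptosis has been started, was at 577 CPM in CD45-KO, against 451 CPM in LatY136F (log2 0.35, 0.32 to 0.39). Gimap1, without which mature T and B cells are largely lost in mice, was at 299 CPM in CD45-KO, against 247 CPM in LatY136F (log2 0.27, 0.23 to 0.32). Gimap8, the member with several GTPase domains in 1 chain, was at 247 CPM in CD45-KO, against 187 CPM in LatY136F (log2 0.40, 0.35 to 0.45). The intervals of Gimap1 and Gimap8 did not overlap. Gimap9 was at 205 CPM in CD45-KO, against 163 CPM in LatY136F (log2 0.33, 0.27 to 0.38). Gimap7, a small member that in human cells pairs with other family members to hydrolyse GTP, was the least abundant, at 91.3 CPM in CD45-KO, against 67.9 CPM in LatY136F (log2 0.43, 0.35 to 0.51). As the assay counts 1 end of each molecule, CPM is not scaled by transcript length, and levels of different genes are compared on that scale.

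**Figure D1:**
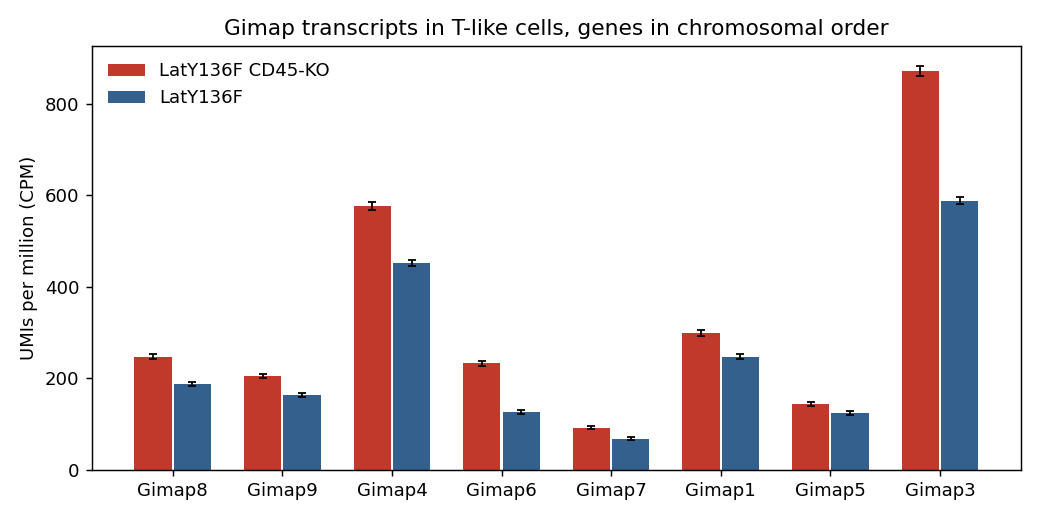
Level of each Gimap gene in CPM over all T-like cells, in chromosomal order, with 95% counting intervals as error bars and 1 library per genotype. All 8 bars are higher in LatY136F CD45-KO (red, left) than in LatY136F (blue, right), with Gimap3 highest at 871 and 588 CPM and Gimap6 the most unequal at 232 and 126 CPM.

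The make-up of the family changed little. Gimap3 supplied 32.7% of all Gimap UMIs in CD45-KO, against 30.1% in LatY136F, and Gimap4 supplied 21.6%, against 23.1%. Gimap6 supplied 8.72% in CD45-KO, against 6.46% in LatY136F, and passed Gimap9 in the order of levels. Gimap9 supplied 7.68% in CD45-KO, against 8.34% in LatY136F.

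Most T cells carried Gimap transcripts. With each cell thinned to 1000 UMIs, which left out 354 CD45-KO and 429 LatY136F cells that were shallower, at least 1 Gimap UMI was found in 91.2% of CD45-KO cells (90.6% to 91.7%), against 84.3% of LatY136F cells (83.7% to 84.9%). Without thinning the shares were 98.1% in CD45-KO and 96.6% in LatY136F. The thinned share for Gimap3 was 54.9% in CD45-KO, against 43.9% in LatY136F, and for Gimap6 20.9%, against 12.2%. For Gimap5 the shares were closest, 13.1% in CD45-KO (12.5% to 13.7%) and 12.1% in LatY136F (11.5% to 12.6%), with intervals that overlap. A thinned cell carried on average 2.07 different members in CD45-KO, against 1.66 in LatY136F. Cells with 4 or more members made up 12.3% in CD45-KO, against 6.14% in LatY136F, and no cell held all 8.

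Few other cells were in the sort to set a background. Cells with at least 2 myeloid and no B-lineage UMIs (81 in CD45-KO and 35 in LatY136F deep enough) had a Gimap UMI in 49.4% in CD45-KO, against 62.9% in LatY136F, at median depths of 5012 and 2972 UMIs before thinning. Of these myeloid-marked cells, 90.4% in CD45-KO and all 35 in LatY136F also held a UMI of a T cell marker, so free RNA or joined cells cannot be told apart from expression in them. Their Gimap6 share was 14.8% in CD45-KO and 14.3% in LatY136F. That places the Gimap6 share of LatY136F T-like cells, 12.2%, at the level of these marked cells, and it is read as no sign of how many of those cells express Gimap6. The same holds for Gimap1 in LatY136F, with 22.2% of T-like cells and 7 of 35 myeloid-marked cells. For Gimap5, Gimap7, Gimap8 and Gimap9 in LatY136F, the T-like share was higher but lay inside the interval of myeloid-marked cells. So did the T-like shares of Gimap6 and Gimap7 in CD45-KO, with Gimap6 at 20.9%, against an interval of 7.90% to 24.4%. The Gimap3 and Gimap4 shares of T-like cells were above those of myeloid-marked cells in both libraries. For Gimap3 in LatY136F, however, the interval of myeloid-marked cells (16.9% to 49.3%) included the T-like share of 43.9%. In CD45-KO the Gimap4 share was 43.0% in T-like cells and 19.8% in myeloid-marked cells. B-lineage-marked cells, of which all also held a T cell marker UMI, had a Gimap3 share of 39.5% in CD45-KO (38 cells) and 54.5% in LatY136F (22 cells). Their Gimap4 share was 10.5% in CD45-KO and 40.9% in LatY136F. In LatY136F the T-like shares were 43.9% for Gimap3 and 36.2% for Gimap4. Both lay inside the intervals of B-lineage-marked cells, 32.2% to 75.6% for Gimap3 and 20.7% to 63.6% for Gimap4. Any Gimap UMI was found in 71.1% of B-lineage-marked cells in CD45-KO (54.1% to 84.6%) and 81.8% in LatY136F (59.7% to 94.8%).

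T-like cells were then split into 5 states that do not overlap, using transcripts other than Gimap genes. Cycling cells held a UMI of at least 4 of 20 cell cycle genes such as Mki67 (211 cells in CD45-KO and 794 in LatY136F). Tfh-like cells, named after follicular helper T cells, held at least 3 of 7 genes such as Cxcr5 and Bcl6 (226 and 140 cells). Gzmb-positive cells held a UMI of the protease gene Gzmb (316 and 1550 cells), naive-like cells at least 3 of 6 genes such as Ccr7 and Lef1 (445 and 135 cells), and the rest are called other T-like cells (11488 and 11056 cells). Gates that ask for several UMIs pick deeper cells, and the median depth was 6458 UMIs in CD45-KO cycling cells and 5866 in LatY136F cycling cells, against 1936 and 2046 in other T-like cells. The summed naive gate genes also differed between libraries outside the gate, at 596 CPM in CD45-KO other T-like cells, against 328 CPM in LatY136F. In naive-like cells they were at 1941 CPM in CD45-KO and 1780 CPM in LatY136F. Whether the gate picks like cells in both libraries was not tested. The numbers of cells per state are given as the base of each value and were not compared.

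The summed Gimap level was higher in CD45-KO than in LatY136F in each of the 5 states. It was 1408 CPM in CD45-KO cycling cells, against 1200 CPM in LatY136F cycling cells (log2 0.23, 0.16 to 0.30), and 3102 CPM in CD45-KO Tfh-like cells, against 2750 CPM in LatY136F Tfh-like cells (log2 0.17, 0.08 to 0.27). The Tfh-like ratio was -0.028 where the gates were applied to cells thinned to 1000 UMIs (97 CD45-KO and 58 LatY136F cells), and the naive-like ratio was then 0.094 (81 and 31 cells). In Gzmb-positive cells it was 2624 CPM in CD45-KO, against 1999 CPM in LatY136F, in naive-like cells 2645 CPM, against 2016 CPM, and in other T-like cells 2737 CPM, against 2094 CPM, each a log2 ratio of 0.39. Set against other T-like cells, the log2 ratio was smaller by 0.16 in cycling cells (difference -0.16, -0.23 to -0.08) and by 0.21 in Tfh-like cells (difference -0.21, -0.31 to -0.12), while the intervals of the difference included 0 in Gzmb-positive and naive-like cells. Over the 12 alternatives run, these differences lay between -0.25 and -0.085 in cycling cells, the smallest with gates on thinned cells, and between -0.43 and -0.10 in Tfh-like cells, the smallest with looser gates. In naive-like cells the difference ran from -0.31 with gates on thinned cells to 0.17 with stricter gates (55 CD45-KO and 13 LatY136F cells). In Gzmb-positive cells it ran from -0.064 with stricter gates to 0.071 with gates on thinned cells. With the 5 states given the same weight in both libraries, the ratio over all T-like cells was 0.38, compared with 0.45 as measured. The measured log2 ratio was thus higher by 0.07. The equal weights were shares of cells, whereas the measured sum weights each cell by its UMIs. The 0.07 therefore holds both changes, and their parts were not tested. With cells weighted equally and the mix left as it was, the ratio was 0.41.

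Of the 40 member-by-state ratios, 37 were above 0, where 48.7% (naive-like) to 53.9% (cycling) of all genes in a state were. These ratios come from 1 gene cluster in the same libraries and are not separate observations. The count of members called higher at 1.5-fold was 0 of 8 in cycling cells (4.38% of all genes), 1 in Tfh-like cells (11.2%), 2 in Gzmb-positive cells (5.86%), 2 in naive-like cells (11.3%) and 1 in other T-like cells (1.54%). No member was called lower in any state, where 3.05% of all genes were in cycling, 10.4% in Tfh-like, 6.78% in Gzmb-positive, 11.3% in naive-like and 2.59% in other T-like cells. Gimap6 was higher in CD45-KO in every state, from a log2 ratio of 0.41 (0.01 to 0.82) in naive-like cells to 0.87 (0.63 to 1.11) in Gzmb-positive cells. Gimap7 was also higher in every state. In naive-like cells it had 77.2 CPM in CD45-KO, against 36.4 CPM in LatY136F, the last from 15 UMIs, and in Tfh-like cells 53.6 CPM, against 24.6 CPM from 13 UMIs. Those counts leave wide intervals (log2 1.08, 0.29 to 1.97, and 1.12, 0.21 to 2.14). Gimap8 was at 262 CPM in CD45-KO naive-like cells, against 160 CPM in LatY136F naive-like cells (log2 0.71, 0.32 to 1.11), but in Tfh-like cells at 238 CPM, against 240 CPM.

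The exceptions were 3. Gimap1 was lower in CD45-KO among cycling cells, with 139 CPM in CD45-KO, against 165 CPM in LatY136F (log2 -0.25, -0.48 to -0.04), although it was higher in other T-like cells, with 308 CPM in CD45-KO, against 262 CPM in LatY136F. The difference of these log2 ratios was -0.49 (-0.71 to -0.27). Gimap5 was at 228 CPM in CD45-KO Tfh-like cells, against 252 CPM in LatY136F Tfh-like cells, and Gimap8 in Tfh-like cells was the third. The intervals of both Tfh-like ratios included 0.

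**Figure D2:**
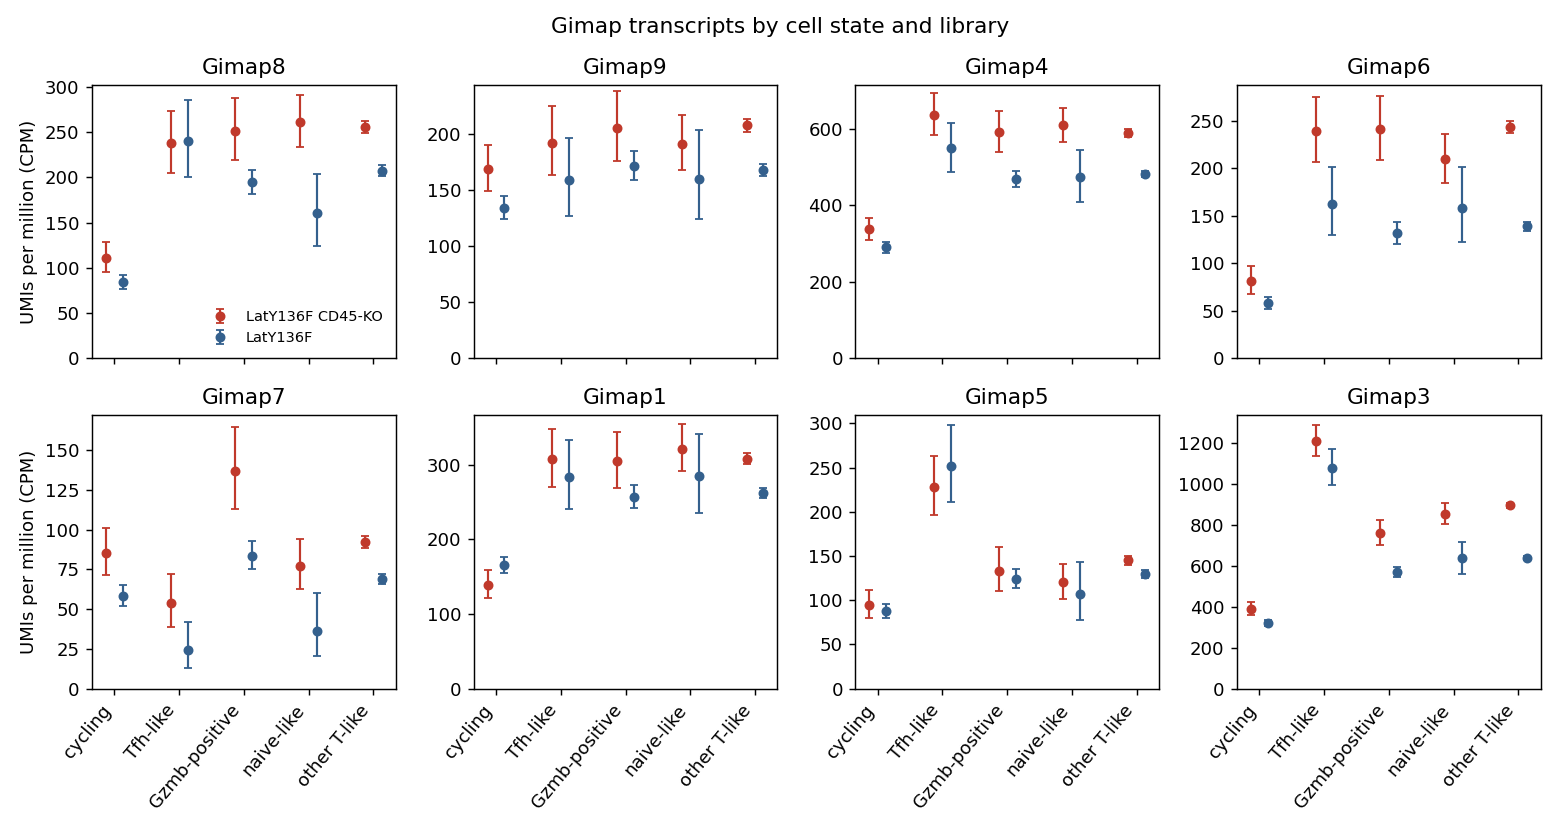
Level of each Gimap gene in CPM in 5 cell states, with LatY136F CD45-KO in red on the left of each pair and LatY136F in blue on the right, and 95% counting intervals as bars. Cycling cells are lowest for 7 of the 8 genes in both libraries, but for Gimap5 and Gimap9 their intervals overlap those of at least naive-like cells. Gimap3 and Gimap5 peak in Tfh-like cells, and Gimap7 peaks in Gzmb-positive cells and is lowest in Tfh-like cells.

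Within each library, cycling cells had the lowest summed Gimap level in CPM, and the lowest level of each member except Gimap7. For Gimap5 and Gimap9 the intervals of cycling cells overlapped those of at least naive-like cells in both libraries. The sum was 1408 CPM in CD45-KO cycling cells, against 2737 CPM in other T-like cells of that library (log2 -0.96, -1.02 to -0.90), and 1200 CPM in LatY136F cycling cells, against 2094 CPM in other T-like cells (log2 -0.80, -0.84 to -0.77). At 1.5-fold or more, 6 of 8 members were called lower in CD45-KO cycling cells, where 22.6% of all genes were, and 5 of 8 in LatY136F cycling cells, where 21.2% were. None was called higher, where 20.1% of all genes in CD45-KO and 16.6% in LatY136F were. Gimap6 fell most in CD45-KO, with 81.6 CPM in cycling cells and 243 CPM in other T-like cells (log2 -1.57), and Gimap8 fell most in LatY136F, with 84.4 CPM in cycling cells and 208 CPM in other T-like cells (log2 -1.30). Gimap3 was at 391 CPM in CD45-KO cycling cells and 322 CPM in LatY136F cycling cells, against 896 CPM and 637 CPM in other T-like cells. Gimap9 and Gimap7 moved least. Gimap9 had log2 ratios of -0.30 in CD45-KO and -0.32 in LatY136F, and Gimap7 -0.11 (-0.37 to 0.14) and -0.23 (-0.41 to -0.06).

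Counted as molecules per cell at any depth, the order of cycling and other T-like cells was the reverse. Cycling cells held 10.5 Gimap UMIs per cell in CD45-KO and 8.08 in LatY136F, against 5.70 and 4.65 in other T-like cells, because their total was 7488 and 6731 UMIs per cell on average, against 2083 and 2222. Among cells of 4000 to 10000 UMIs, a range chosen after seeing these depths, cycling cells held fewer. There, 132 CD45-KO cycling cells held 9.70 Gimap UMIs each, against 11.9 in 352 other T-like cells, and 493 LatY136F cycling cells held 7.84, against 9.57 in 540 other T-like cells. Cycling cells remained deeper within the range, with medians of 6048 UMIs in CD45-KO and 6182 in LatY136F, against 4557 and 4616 in other T-like cells. The log2 ratios of CPM in this range were -0.72 (-0.81 to -0.63) in CD45-KO and -0.67 (-0.73 to -0.61) in LatY136F. Gimap8 stood at -0.93 and -1.15 in the range, Gimap6 at -1.18 and -0.83, and Gimap9 at -0.12 and -0.16, the last pair with intervals that include 0.

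The level went down in steps with the number of cell cycle genes in a cell. In CD45-KO the sum was 2753 CPM in cells with none of the 20 genes, 2744 CPM with 1, 2517 CPM with 2 to 3, 1655 CPM with 4 to 5, 1410 CPM with 6 to 9 and 1383 CPM with 10 to 20. In LatY136F it was 2111, 2094, 2006, 1711, 1316 and 1107 CPM over the same bins. The 2 libraries were thus apart in cells with few cell cycle genes and at 10 to 20 genes, whereas at 4 to 5 and 6 to 9 genes their intervals overlapped, the first of these bins with 27 CD45-KO cells and the second with 33. Median depth also went up along the bins, to 7447 UMIs in CD45-KO and 6856 in LatY136F in the last, and its part in the steps was not tested.

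**Figure D3:**
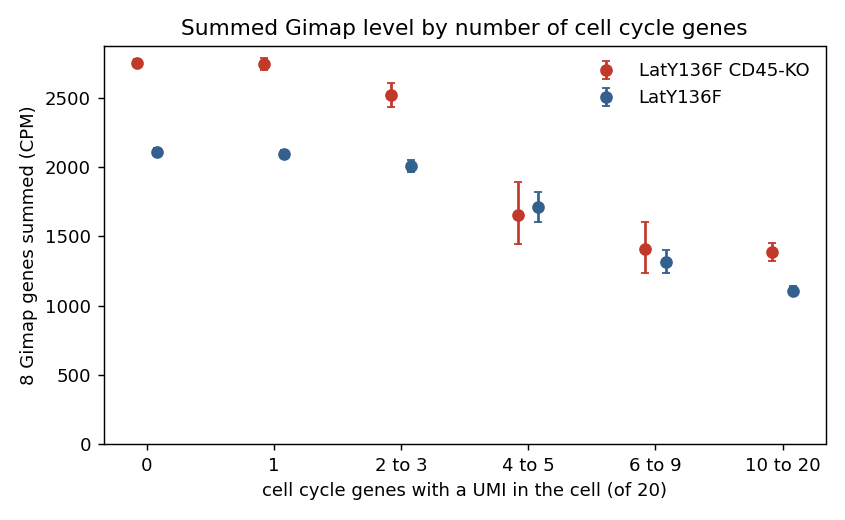
Summed level of the 8 Gimap genes in CPM against the number of 20 cell cycle genes with a UMI in the cell, for LatY136F CD45-KO (red, left) and LatY136F (blue, right), with 95% counting intervals. The level is 2753 and 2111 CPM with no cell cycle gene and 1383 and 1107 CPM with 10 to 20 of them, and the 2 libraries overlap at 4 to 9 genes.

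Tfh-like cells, which help B cells in follicles, had the highest summed level. Over other T-like cells of the same library, the log2 ratio was 0.18 (0.12 to 0.24) in CD45-KO and 0.39 (0.32 to 0.47) in LatY136F. The family did not move as 1 block. Gimap5 was at 228 CPM in CD45-KO Tfh-like cells, against 145 CPM in other T-like cells (log2 0.65), and at 252 CPM in LatY136F Tfh-like cells, against 130 CPM (log2 0.96). Gimap3 was at 1209 CPM in CD45-KO Tfh-like cells, against 896 CPM in other T-like cells (log2 0.43), and at 1080 CPM in LatY136F Tfh-like cells, against 637 CPM (log2 0.76). Gimap7 went the other way, at 53.6 CPM in CD45-KO Tfh-like cells, against 92.1 CPM in other T-like cells (log2 -0.78), and at 24.6 CPM, against 68.8 CPM, in LatY136F (log2 -1.48). The other 5 members had log2 ratios between -0.11 and 0.23. Called higher at 1.5-fold were 1 of 8 members in CD45-KO (19.4% of all genes) and 2 of 8 in LatY136F (19% of all genes), and called lower 1 of 8 in each (13.2% and 14.8%). With so large a background these counts are not results about the family.

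Gzmb-positive and naive-like cells differed little from other T-like cells in the sum, with log2 ratios of -0.06 and -0.05 in CD45-KO and -0.07 and -0.05 in LatY136F. In Gzmb-positive cells no member was called in either direction, where 3.05% of all genes were called higher and 3.75% lower in CD45-KO, and 0.634% and 0.294% in LatY136F. Gimap7 came nearest, at 137 CPM in CD45-KO Gzmb-positive cells, against 92.1 CPM in other T-like cells (log2 0.57, 0.29 to 0.84), and at 83.7 CPM, against 68.8 CPM, in LatY136F (log2 0.28, 0.11 to 0.45). Gimap3 was lower in Gzmb-positive cells, at log2 -0.24 (-0.35 to -0.12) in CD45-KO and -0.16 (-0.23 to -0.10) in LatY136F. In naive-like cells 0 of 8 members were called in CD45-KO (1.04% of all genes higher and 1.86% lower). In LatY136F naive-like cells 1 of 8, Gimap7, was called lower, at 36.4 CPM, against 68.8 CPM in other T-like cells (log2 -0.92, -1.76 to -0.19), where 8.08% of all genes were called lower and 5.62% higher.

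**Figure D4:**
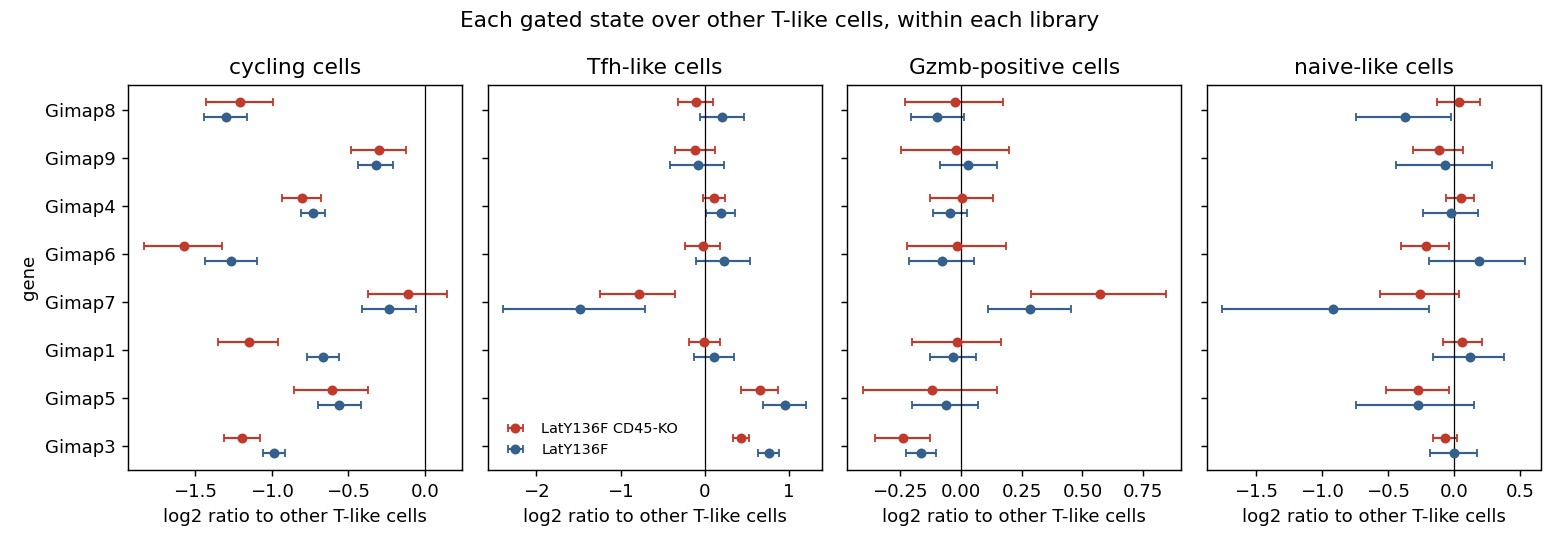
log2 ratio of CPM of each gated state to other T-like cells for each Gimap gene (rows in chromosomal order), within LatY136F CD45-KO (red, upper) and within LatY136F (blue, lower), with 95% counting intervals and a line at 0. Points are left of 0 in cycling cells for all 8 genes, and Gimap7 is left of 0 in Tfh-like cells (-0.78 and -1.48) and right of 0 in Gzmb-positive cells (0.57 and 0.28).

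The order of the states by summed level was the same in both libraries, Tfh-like above other T-like, naive-like, Gzmb-positive and cycling. Of these neighbours, other T-like and naive-like cells, and naive-like and Gzmb-positive cells, had overlapping intervals in both libraries. For Gimap3 the order was the same as for the sum. For Gimap7 it was Gzmb-positive above other T-like, cycling, naive-like and Tfh-like in both libraries, with overlapping intervals from cycling downward in both and also between other T-like and cycling cells in CD45-KO. Over the 10 points given by 5 states in 2 libraries, which share depth and the normalization to totals, Gimap7 had a Pearson correlation of -0.06 with the family sum, on log2(CPM + 1). Gimap4 had 0.99, Gimap3 0.98, Gimap8 and Gimap6 0.96, Gimap1 0.91, Gimap5 0.79 and Gimap9 0.75, and the sum contains each of them. Between members the values ran from -0.43 for Gimap5 with Gimap7 to 0.98 for Gimap4 with Gimap6.

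Further sets of cells, gated on 1 or 2 transcripts each, were also compared. In Trdc-positive cells, which hold a constant-region transcript of gamma-delta T cells (215 cells in CD45-KO and 570 in LatY136F), the sum was 2815 CPM in CD45-KO, against 1951 CPM in LatY136F (log2 0.53, 0.44 to 0.62). In cells with a UMI of Il1rl1, the receptor of interleukin 33 (7721 and 7799 cells), the log2 ratio was 0.42, and in Il4-positive cells (632 and 823 cells) it was 0.45. Foxp3-positive cells, regulatory T cells by that marker, had 2697 CPM in 29 CD45-KO cells, against 1962 CPM in 99 LatY136F cells (log2 0.46, 0.22 to 0.69). Cells with Cd8a or Cd8b1 and no Cd4 UMI were few, 25 in CD45-KO and 23 in LatY136F. Their sum was 2735 CPM in CD45-KO and 2732 CPM in LatY136F, with an interval of the log2 ratio from -0.27 to 0.27 that does not reach the ratio over all T-like cells. Outside the T-like cells the sum was not higher. Myeloid-marked cells had 809 CPM in 83 CD45-KO cells, against 1213 CPM in 35 LatY136F cells (log2 -0.58, -0.84 to -0.32), and B-lineage-marked cells 1398 CPM in 38 CD45-KO cells, against 1557 CPM in 25 LatY136F cells (log2 -0.16, -0.43 to 0.12).

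The genes whose levels followed the family sum most closely over the 10 points were named from 3739 genes with at least 50 CPM in a library. They were Hivep2, a zinc finger factor (r = 0.99), Malat1, a nuclear long noncoding RNA (0.98), Akap8l, a nuclear scaffold protein (0.98), Zbtb4, a zinc finger repressor (0.98), and Zfhx2, a homeobox zinc finger factor (0.98). Ptprc, which was lower in CD45-KO in each state, had 0.45. Hivep2 was at 174 CPM in CD45-KO T-like cells, against 119 CPM in LatY136F (log2 0.55), and Malat1 at 987 CPM, against 697 CPM (log2 0.50). Malat1 was lowest in cycling cells, with 358 CPM in CD45-KO and 223 CPM in LatY136F, and highest in Tfh-like cells, with 1482 CPM in CD45-KO and 1136 CPM in LatY136F. The genes were picked for following the sum over these same points, so their order of states and higher level in CD45-KO come with that choice. Malat1 RNA stays in the nucleus, and its part in the Gimap ratios was not tested.

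Genes beside the cluster were measured to show how far the pattern extends on the chromosome. Of 12 listed neighbours on chromosome 6, 10 are in the files and 2 of them reached 20 CPM. Tmem176b and Tmem176a, which encode a pair of membrane proteins and lie 63.0 and 70.1 kb beyond Gimap3, went the other way. Tmem176b was at 16.7 CPM in CD45-KO, against 56.5 CPM in LatY136F (log2 -1.76, -1.91 to -1.62), and Tmem176a at 7.74 CPM, against 32.1 CPM (log2 -2.05, -2.27 to -1.84). On the other side, Lrrc61 was at 17.6 CPM in CD45-KO, against 15.8 CPM in LatY136F, Zfp467 at 12.3 CPM, against 12.1 CPM, Repin1 at 5.42 CPM, against 5.35 CPM, and Zfp775 at 4.99 CPM, against 5.63 CPM. The intervals of these 4 ratios included 0. Sspo had 27 UMIs in CD45-KO, against 74 in LatY136F. Atp6v0e2 had 2 UMIs in CD45-KO and 8 in LatY136F, Rarres2 had 5 and 6, and Aoc1 had 0 in both. At these counts a ratio as large as that of Gimap5 (0.21) lies inside the intervals of Lrrc61 (-0.02 to 0.33), Repin1 (-0.30 to 0.33) and Zfp467 (-0.18 to 0.23).

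**Figure D5:**
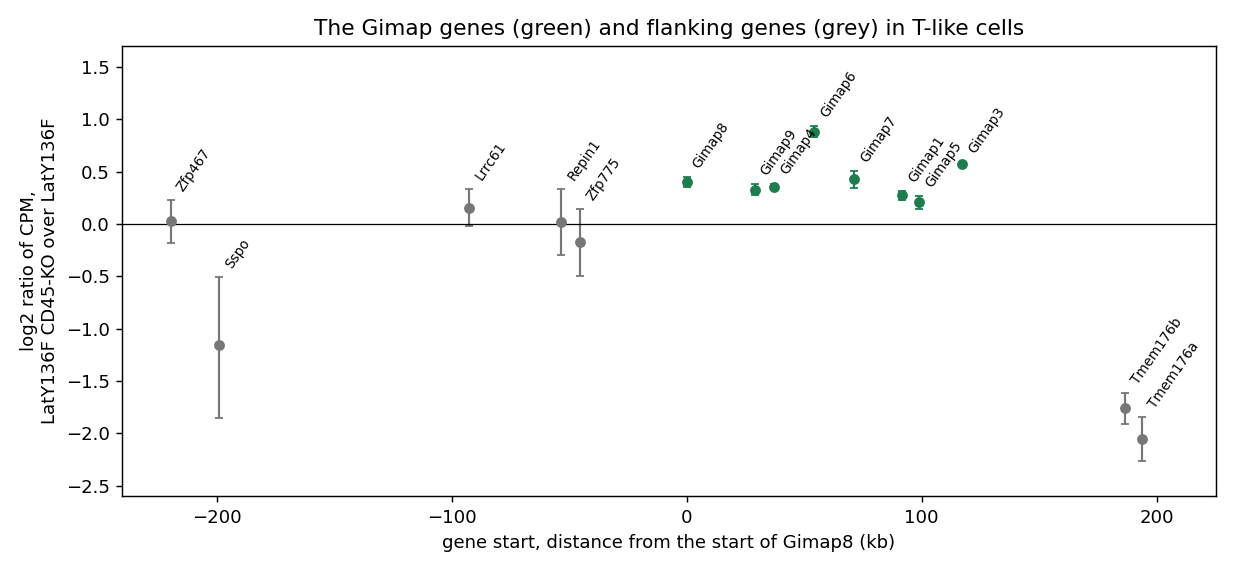
log2 ratio of CPM, LatY136F CD45-KO over LatY136F, in T-like cells, against the start of each gene as its distance from the start of Gimap8 in kb, with 95% counting intervals, for genes with at least 20 UMIs in each library. The 8 Gimap genes (green) lie between 0.21 and 0.88, the flanking Zfp467, Lrrc61, Repin1 and Zfp775 (grey) have intervals that include 0, and Sspo, Tmem176b and Tmem176a lie below 0.

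Lists of related genes give the setting. Of 19 measured genes of T cell quiescence, the resting state, 6 were higher at 1.5-fold and none lower in CD45-KO, with a median log2 ratio of 0.39. They were led by Ccr7, a homing receptor, with 26.2 CPM in CD45-KO, against 11.1 CPM in LatY136F (log2 1.24), Tcf7, a factor of naive and memory T cells, with 389 CPM, against 166 CPM (log2 1.23), Lef1, its relative, with 102 CPM, against 55.9 CPM (log2 0.87), and Tob1, which restrains proliferation, with 33.0 CPM, against 18.3 CPM (log2 0.85). Of 18 measured activation genes, 8 were lower and 1 higher, with a median of -0.52. The higher one was Myc (log2 0.98), named after its value was seen. Gzmb was at 23.0 CPM in CD45-KO, against 129 CPM in LatY136F (log2 -2.49), Anxa2, an annexin, at 150 CPM, against 458 CPM (log2 -1.61), Il2ra, a chain of the interleukin 2 receptor, at 25.4 CPM, against 57.1 CPM (log2 -1.17), and Anxa1 at 17.7 CPM, against 38.3 CPM (log2 -1.11). The background is as given above for all genes, 1.89% higher and 3.8% lower.

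Of 18 measured genes that encode reported partners of GIMAP proteins or their pathways (BCL2 family, autophagy, calmodulin and GSK3), 1 was called lower and none higher, and the median log2 ratio was -0.02. The called gene was Bak1, a pore-forming effector of apoptosis, with 58.7 CPM in CD45-KO, against 104 CPM in LatY136F (log2 -0.82). Bax, its relative, was at 131 CPM in CD45-KO, against 172 CPM (log2 -0.39), Calm3, a calmodulin gene, at 210 CPM, against 313 CPM (log2 -0.57), and Atg7, an enzyme of autophagosome formation, at 18.5 CPM, against 24.6 CPM (log2 -0.41). Gabarapl2, which encodes the partner of Gimap6, was at 307 CPM in CD45-KO, against 301 CPM in LatY136F. It was named after its value was seen.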

How the data were processed

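Cells of 1 library per genotype were captured with the BD Rhapsody whole transcriptome system. The deposited files hold UMI counts per cell and gene, corrected for UMI errors by the authors' pipeline and not normalized. BD pipeline 1.9.1, GRCm38 and GENCODE M19 are named per the file headers, which were followed here. Other versions stand elsewhere, namely pipeline 2.0 and Seurat 4.04 in the design text and GRCm39 in the submitters' processing notes. Positions come from GENCODE M21. The gate for T-like cells and the 5 states, in the order of priority cycling, Tfh-like, Gzmb-positive, naive-like and other, were applied to cells of 200 genes or more whose mitochondrial share was 25% or less. Doublets were not removed.

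Counts were summed per library and state and given as CPM. The total behind the sums over all T-like cells was 28431648 UMIs in CD45-KO and 34965039 in LatY136F. The 95% interval of a ratio is the exact conditional one for 2 Poisson counts, and that of a share is Clopper-Pearson. A gene was called past 1.5-fold. The named genes are all 8 members, the 5 genes with the highest correlation with their sum, up to 4 of each list by absolute log2 ratio with at least 20 CPM, and the measured neighbours. Of 20 neighbours listed, 8 lie on chromosome 5 and are left out. The members and lists were chosen with earlier results of these data known. Alternatives changed filters, totals, gates, depth and weights. Python 3.11.15, numpy 2.4.6, scipy 1.17.1 and Biopython 1.88 were used.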

Additional observations from a re-analysis of the deposited data

Results flagged for a closer look

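One member's genotype ratio had opposite signs in 2 cell states with both intervals away from 0. Gimap1 was lower in CD45-KO than in LatY136F among cycling cells (log2 -0.25, from 219 UMIs in 211 CD45-KO cells and 884 UMIs in 794 LatY136F cells) and higher among other T-like cells (log2 0.23, from 7365 and 6441 UMIs). The difference between the states rests on 1 library per genotype and was not tested. In cycling cells the ratio stayed between -0.34 and -0.14 over the 12 alternatives that were run for it. With 4 to 5 cell cycle genes Gimap1 was at 262 CPM in 27 CD45-KO cells, against 224 CPM in 126 LatY136F cells. With 6 to 9 it was at 135 CPM in 33 CD45-KO cells, against 165 CPM in 150 LatY136F cells. With 10 to 20 it was at 127 CPM, against 157 CPM. No interval was computed for Gimap1 in these bins, and whether its ratio differs between them was not tested. Thinned to 1000 UMIs, 11.8% of CD45-KO cycling cells held Gimap1 (7.82% to 17.0%), against 15.7% in LatY136F (13.2% to 18.4%), and these intervals overlap. An antisense gene shares 36.0% of the exonic bases of Gimap1.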

How the results depend on the processing

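All 8 members stayed above 0 over T-like cells in each of the 10 alternatives run for that comparison, with Gimap6 between 0.79 and 0.92 and Gimap5 between 0.13 and 0.27 (log2, CD45-KO over LatY136F). Gimap3 passed 1.5-fold beside Gimap6, making 2 members called, with at most 10% mitochondrial counts (log2 0.62) and with totals without mitochondrial and ribosomal protein genes (log2 0.61). The summed ratio was 0.48 with at most 10% mitochondrial counts, 0.43 with non-T cells included, 0.41 with cells weighted equally, 0.49 with totals without mitochondrial and ribosomal protein genes, 0.43 without cells of over 10000 UMIs, 0.40 with cells thinned to 1000 UMIs and 0.38 with the mix of states held equal. Of all genes, 126 were called higher and 253 lower, against 63 and 134 with at least 50 CPM and 92 and 164 with the mix of states held equal.

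Ratios by state moved with the gates. Where gates were applied to cells thinned to 1000 UMIs, the Tfh-like ratio changed sign to -0.028 (97 CD45-KO and 58 LatY136F cells), and the ratio was 0.32 in cycling, 0.47 in Gzmb-positive, 0.094 in naive-like (81 and 31 cells) and 0.40 in other T-like cells, and the cause was not tested. It was 0.29 in Tfh-like cells with looser gates, 0.56 in naive-like cells with stricter gates (55 and 13 cells) and 0.12 in cycling cells with non-T cells included. In other T-like cells it was 0.42 with at most 10% mitochondrial counts and 0.43 without mitochondrial and ribosomal protein genes in the totals.

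Cycling over other T-like cells was -1.06 in CD45-KO with non-T cells included, -0.82 in CD45-KO and -0.71 in LatY136F without cells of over 10000 UMIs, -0.83 and -0.68 with looser gates, and -0.72 and -0.67 among cells of 4000 to 10000 UMIs. In LatY136F alone it was -0.76 with cells weighted equally, -0.87 with stricter gates and -0.85 with gates on thinned cells. Tfh-like over other T-like cells was 0.089 in CD45-KO and 0.30 in LatY136F with at most 10% mitochondrial counts, 0.12 and 0.55 with gates on thinned cells, 0.34 in CD45-KO among cells of 4000 to 10000 UMIs and 0.30 in LatY136F with looser gates. Gzmb-positive cells in CD45-KO stood at -0.15 with stricter gates and 0.012 with gates on thinned cells. Naive-like cells stood at 0.026 with stricter gates and 0.084 among cells of 4000 to 10000 UMIs in CD45-KO, and at 0.064 with looser gates and 0.26 with gates on thinned cells in LatY136F. Thinned to 500 UMIs, 72.7% of CD45-KO and 63.1% of LatY136F T-like cells held a Gimap UMI.

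The range of 4000 to 10000 UMIs and the removal of the 223 shared barcodes were chosen after seeing the data, and the removal changed no result listed here beyond its interval. No paired analysis was possible because each genotype has 1 library. Depth limits Gimap7 most, with 13 and 15 UMIs in LatY136F Tfh-like and naive-like cells.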
